A study of Mus musculus with 30 samples.

Results

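The muscle ubiquitin ligases linked to atrophy are described here as 8 genes taken by symbol from the deposited count file, Fbxo32, Trim63, Fbxo30, Fbxo21, Trim54, Trim55, Fbxo40 and Asb2, out of 36103 genes in all. All 8 symbols were found, each on a single row. Their mRNA was followed in 4 tissues (gastrocnemius, diaphragm, heart, liver) from Mtm1 knockout males, written Mtm1-/y, and from wild-type (WT) littermates. Mtm1 encodes myotubularin, a phosphatase that acts on phosphoinositides, and its loss models X-linked myotubular myopathy. All mice were of a pure 129Pas background and aged 5 weeks, an age at which Mtm1-/y mice are weak but not yet moribund, and the RNA came from whole organs. The gastrocnemius and the heart had 4 libraries per genotype, whereas the diaphragm had 4 from WT and 3 from Mtm1-/y mice and the liver 3 from WT and 4 from Mtm1-/y mice. The knockout is present in every tissue of these animals, so none of their tissues is genetically unaffected. The 30 libraries held between 24873817 and 44289343 gene-assigned reads, and no 2 libraries of a group matched within sampling noise. The labels do not tie a library number to an animal, so the p-values measure the spread between these libraries.

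Muscle protein is broken down largely by the ubiquitin-proteasome system, in which an activating enzyme (E1), a conjugating enzyme (E2) and a ligase (E3) hand ubiquitin to a protein that the ligase selects. The 8 genes encode E3 ligases or the substrate-selecting subunit of one. The RING-type ligases Trim63 (MuRF1), Trim55 (MuRF2) and Trim54 (MuRF3) sit on the sarcomere and microtubules, the F-box proteins Fbxo32 (atrogin-1), Fbxo30 (MUSA1), Fbxo21 (SMART) and Fbxo40 bring substrates to a cullin ligase built on Cul1, and Asb2 does so for one built on Cul5. Fbxo32 and Trim63 are the classic markers of muscle wasting, and forkhead (FoxO) transcription factors are known to switch on both, as well as Fbxo30 and Fbxo21.

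In mm10 coordinates of the GENCODE annotation, Fbxo32 (ENSMUSG00000022358) lies at chr15:58175879-58214932 on the minus strand and Trim63 (ENSMUSG00000028834) at chr4:134315120-134329629 on the plus strand. Fbxo30 (ENSMUSG00000047648) lies at chr10:11281330-11298052 and Fbxo21 (ENSMUSG00000032898) at chr5:117976730-118010201, both on the plus strand. Trim54 (ENSMUSG00000062077) lies at chr5:31116712-31137630 and Trim55 (ENSMUSG00000060913) at chr3:19644474-19692421, both on the plus strand, while Fbxo40 (ENSMUSG00000047746) at chr16:36963460-36990467 and Asb2 (ENSMUSG00000021200) at chr12:103321142-103356001 are on the minus strand. The 8 genes thus lie on 7 chromosomes, and Fbxo21 and Trim54 share chromosome 5 without being neighbours. Exons of Fbxo32 and Trim54 overlap exons of an antisense gene (Gm15943 and Gm15469), and the strand setting of the counting was not given in the sources used here. Those antisense genes had at most 13 and 5 counts in any library, against at least 3042 for Fbxo32 and 1703 for Trim54 in every muscle library.

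The RefSeq promoter table (GRCm38.p6) held 6 of the 8 genes, with 8 start sites between them. Fbxo32 and Trim55 were not in it, so their promoters were not searched. The 250 bases before the start are printed for 4 genes that moved in opposite directions in the gastrocnemius, Trim63 upwards and Trim54, Fbxo40 and Asb2 downwards, so that their letters can be compared. Capitals mark 3 motifs, searched on both strands: GTAAACA or TGTTTAC (forkhead), AGAACA or TGTTCT (glucocorticoid) and CAGCTG (an E-box that myogenic factors bind). The glucocorticoid motif is only a part of a glucocorticoid receptor site, and the whole site was not searched. The windows are chr4:134314870-134315119 on the plus strand for Trim63, chr5:31116362-31116611 on the plus strand for Trim54, chr16:36990468-36990717 on the minus strand for the upstream start of Fbxo40 and chr12:103356002-103356251 on the minus strand for the upstream start of Asb2, in GRCm38 (mm10) coordinates of the RefSeq starts, which can lie apart from the GENCODE starts above.
Trim63: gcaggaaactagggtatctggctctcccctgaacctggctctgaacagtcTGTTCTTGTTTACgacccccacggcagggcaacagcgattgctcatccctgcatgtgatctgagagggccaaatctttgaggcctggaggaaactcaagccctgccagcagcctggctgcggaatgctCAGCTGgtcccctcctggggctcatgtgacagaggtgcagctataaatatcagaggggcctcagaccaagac
Trim54: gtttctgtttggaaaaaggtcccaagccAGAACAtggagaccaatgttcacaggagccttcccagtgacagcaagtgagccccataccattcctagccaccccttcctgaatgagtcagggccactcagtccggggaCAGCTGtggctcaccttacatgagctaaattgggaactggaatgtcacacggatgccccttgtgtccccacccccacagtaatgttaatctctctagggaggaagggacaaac
Fbxo40: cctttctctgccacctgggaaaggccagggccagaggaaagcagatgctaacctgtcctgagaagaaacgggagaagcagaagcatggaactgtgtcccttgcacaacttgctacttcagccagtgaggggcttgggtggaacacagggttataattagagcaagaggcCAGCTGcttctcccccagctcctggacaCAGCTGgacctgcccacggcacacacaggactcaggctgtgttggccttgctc
Asb2: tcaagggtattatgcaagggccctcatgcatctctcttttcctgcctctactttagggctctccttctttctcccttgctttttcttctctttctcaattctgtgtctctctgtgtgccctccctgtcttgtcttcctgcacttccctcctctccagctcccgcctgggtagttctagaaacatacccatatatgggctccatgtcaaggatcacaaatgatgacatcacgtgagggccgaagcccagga
The Trim63 window held the only forkhead match among the 8 start sites, beginning 194 bases before the start and directly after a glucocorticoid motif that begins at 200 bases, with no shared base. A forkhead match occurred in 3.17% of the 32851 windows of this length in the table, a glucocorticoid motif in 16.1% and the E-box in 13.0%. Trim63, Trim54 and both Fbxo40 starts carried the E-box, the upstream Fbxo40 start in 2 copies, while Fbxo30, Fbxo21 and both Asb2 starts held none of the 3 motifs. These matches describe the letters only.

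Before the members are compared, the labels and libraries were checked. Mtm1 itself separated the genotypes in each tissue, with 3.98 to 5.33 CPM in the Mtm1-/y against 18.8 to 20.6 CPM in the WT gastrocnemius. In the liver the ranges were 3.37 to 6.39 CPM (Mtm1-/y) and 12.5 to 19.0 CPM (WT). Its adjusted p in edgeR was 2.07e-05 in the gastrocnemius, 2.64e-05 in the heart and 0.0269 in the diaphragm. In the liver it was 0.365, so even the deleted gene was not called there. CPM stands for counts in a library scaled to 1000000 reads, here with trimmed-mean (TMM) scaling within a tissue unless stated otherwise. Skeletal muscle markers (8 genes, Myh4, Acta1 and Ckm among them) summed to at least 54413 CPM in every gastrocnemius and diaphragm library, and hepatocyte markers to at least 124915 CPM in every liver library. The diaphragm libraries also carried hepatocyte transcripts, from 449 to 36736 CPM in WT and from 791 to 47470 CPM in Mtm1-/y mice. With 1113 liver-enriched genes left out before scaling, none of the 8 genes was called between the genotypes in the diaphragm, as with all genes, and the WT tissue comparisons were not repeated that way. One Mtm1-/y liver library, replicate 2, held 98.7 CPM of skeletal muscle markers against 5.69 to 32.8 in the other liver libraries.

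In WT mice the 8 genes split into muscle-restricted and broadly expressed ligases. To compare genes, levels were divided by exon length and are given as CPM per kb, with 1 TMM scaling over the 15 WT libraries. In the gastrocnemius Trim54 was the highest at 288 ± 32 CPM per kb (SD, n = 4), followed by Asb2 at 144 ± 14, Fbxo40 at 106 ± 7.5, Trim63 at 98.4 ± 22, Trim55 at 39.5 ± 2.1 and Fbxo32 at 22.0 ± 7.4. Fbxo30 at 3.92 ± 0.32 and Fbxo21 at 3.47 ± 0.21 were the lowest. The libraries of neighbours in this order overlapped for Fbxo40 and Trim63 and for Fbxo30 and Fbxo21, and did not overlap for the other neighbours. With the longest transcript in place of the union of exons, Trim63 (148 CPM per kb) stood above Fbxo40 (114) and Fbxo21 (4.86) above Fbxo30 (4.03), so the order inside these pairs depends on the length used. In the heart the order was Asb2 (93.5 ± 27), Trim63 (89.8 ± 13), Trim54 (71.3 ± 20), Trim55 (60.5 ± 1.9), Fbxo40 (41.4 ± 7.2) and Fbxo32 (24.8 ± 3.6 CPM per kb), with Fbxo21 (6.58 ± 0.79) and Fbxo30 (6.33 ± 0.13) again lowest. The heart libraries of neighbours among the first 4 genes in this order overlapped, as did those of Fbxo21 and Fbxo30, while Trim63 and Trim55 did not overlap. In the diaphragm Trim54 (106 ± 15), Asb2 (93.4 ± 17) and Trim63 (83.8 ± 24) came first and overlapped, followed by Fbxo40 (42.6 ± 11), Fbxo32 (39.0 ± 12) and Trim55 (21.5 ± 3.6 CPM per kb), which overlapped from one to the next. The diaphragm libraries of Trim63 and Fbxo40 overlapped as well. Fbxo21 (6.39 ± 1.9) and Fbxo30 (5.43 ± 0.58) came last, overlapped each other and lay below Trim55. With the longest transcript as the length, Trim63 (126) and Asb2 (123) stood above Trim54 (106 CPM per kb) in the diaphragm, and Trim63 (135) above Asb2 (123) in the heart. The mean of Fbxo32 was below that of Trim63 in all 3 muscles with either length, while their libraries overlapped in the diaphragm.

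**Figure D1:**
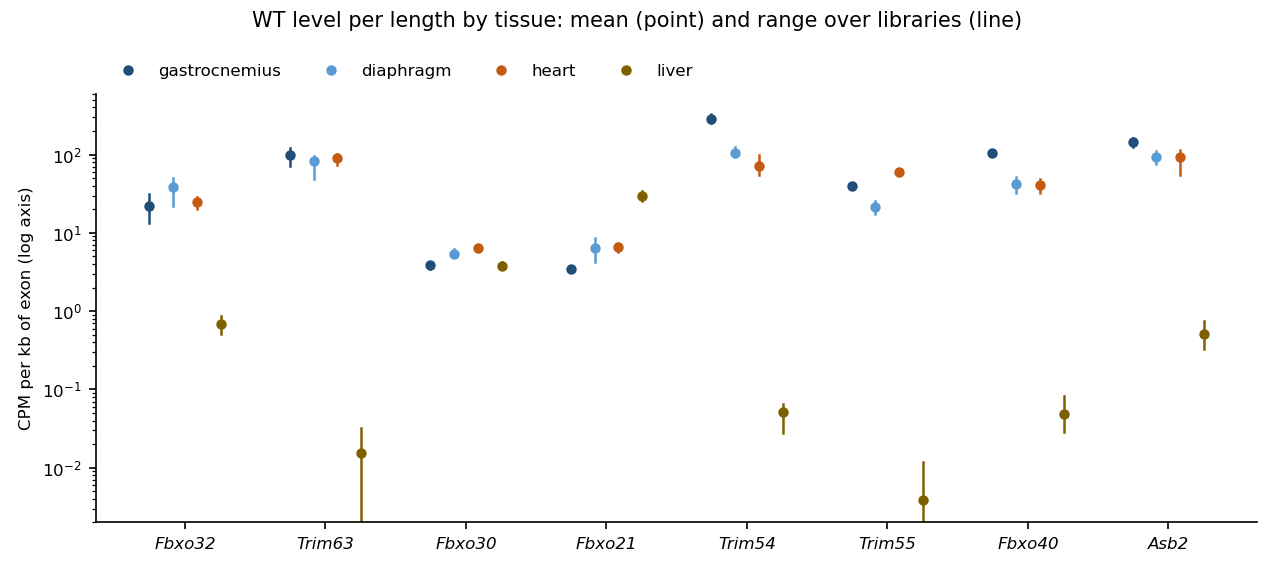
WT levels of the 8 ligase genes by tissue, in CPM per kb of exon on a log axis; the point is the mean and the line the range over 4 libraries (3 for the liver), and a line that reaches the axis has a library at 0. Fbxo30 and Fbxo21 are present in all 4 tissues, the other 6 genes are more than 10-fold lower in the liver than in any muscle, and Trim54 and Fbxo40 are highest in the gastrocnemius and Trim55 in the heart.

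Between tissues, 7 of the 8 genes differed between WT gastrocnemius and diaphragm (background: 54.4% of 17725 genes tested), 6 between gastrocnemius and heart (61.3%) and 2 between diaphragm and heart (51.7%), at an adjusted p under 0.05 in edgeR's quasi-likelihood test. Differences between these tissues were thus common among all genes too. Trim54, which stabilises microtubules and the sarcomere, was higher in the gastrocnemius than in the diaphragm by 1.45 on the log2 scale (SE 0.18, adjusted p = 2.68e-05) and than in the heart by 2.01 (SE 0.19, adjusted p = 5.35e-07). Fbxo40, the muscle F-box protein known to target IRS1, was likewise higher in the gastrocnemius, by 1.31 (SE 0.22, adjusted p = 0.000202) and 1.35 (SE 0.22, adjusted p = 0.000105). Trim55 had the opposite preference between gastrocnemius and heart: its level in the heart exceeded that in the gastrocnemius (difference gastrocnemius minus heart -0.62, SE 0.13, adjusted p = 0.00122) and that in the diaphragm (diaphragm minus heart -1.49, SE 0.14, adjusted p = 1.01e-06). Trim63 did not pass the test between any pair of the 3 muscles, with differences of 0.23 (95% interval -0.32 to 0.78), 0.13 (-0.42 to 0.68) and -0.10 (-0.65 to 0.45) for gastrocnemius minus diaphragm, gastrocnemius minus heart and diaphragm minus heart. Trim54 was also higher in the diaphragm than in the heart (0.57, SE 0.18, adjusted p = 0.0175), a call lost without WT heart replicate 3 (0.48, adjusted p = 0.0603).

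Fbxo32 was lower in WT gastrocnemius than in WT diaphragm (-0.83, SE 0.27, adjusted p = 0.0194), a call lost without WT gastrocnemius replicate 1 (-0.65, adjusted p = 0.0571). Its 2 broadly expressed relatives were also lowest in the gastrocnemius among the muscles. Fbxo30 was lower there than in the diaphragm by -0.47 (SE 0.09, adjusted p = 0.000616) and than in the heart by -0.69 (SE 0.09, adjusted p = 1.49e-05). Fbxo21 was lower there by -0.88 (SE 0.18, adjusted p = 0.000965) and -0.92 (SE 0.18, adjusted p = 0.000508). In WT diaphragm Fbxo21 was at 28.0 CPM in the library with 449 CPM of hepatocyte markers and at 34.9 to 54.7 CPM in the 3 with 24257 to 36736 CPM, against 25.4 to 98.1 CPM of these markers in WT gastrocnemius, and the part of hepatocyte RNA in this difference was not tested. Asb2 was higher in the gastrocnemius by 0.62 in both pairs (SE 0.24, adjusted p = 0.0437 and 0.0395), and this difference passed the test less firmly: against the diaphragm it was lost in 9 of 15 fits that leave out a WT library (adjusted p up to 0.167, the highest without WT diaphragm replicate 1), and against the heart in 5 of 15 (adjusted p up to 0.0996, the highest without WT heart replicate 4). With library totals in place of TMM factors the Asb2 differences shrank to 0.10 and 0.03.

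The liver was the tissue without muscle. Fbxo32, Asb2 and Fbxo21 differed between it and the gastrocnemius (background: 79.5%). The same genes and Fbxo30 differed between it and the diaphragm (76.1%) or the heart (76.4%), shares that show such differences to be common among all genes. Trim63, Trim54, Trim55 and Fbxo40 passed the filter of this fit only through the muscle libraries, and their calls against the liver are not read here. Trim63, Trim54 and Trim55 had between 0 and 3 counts in each WT liver library and Fbxo40 between 5 and 10, whereas each had at least 1810 in every WT muscle library. A count of 0 allows about 3 counts in libraries of this depth, and this covers counting error only. Fbxo32 at 4.84 ± 1.2 CPM and Asb2 at 1.83 ± 0.74 CPM (SD, n = 3, WT scaling) were low but counted in each WT liver library. Fbxo21 was highest in the liver, at 165 ± 24 CPM against 19.3 ± 1.1 in the gastrocnemius (gastrocnemius minus liver -3.10 on the log2 scale, SE 0.20, adjusted p = 5.25e-09). Fbxo30 did not pass the test between gastrocnemius and liver (0.07, 95% interval -0.14 to 0.28).

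The genotype comparison asks which of these ligase mRNAs change when myotubularin is absent. In the gastrocnemius 3 of the 8 genes rose in Mtm1-/y mice and 4 fell at an adjusted p under 0.05 in edgeR, against a background of 14.1% higher and 14.9% lower among 15456 genes tested. The genes that rose were Fbxo32, Trim63 and Fbxo30, and those that fell were Asb2, Trim55, Trim54 and Fbxo40, so the family moved in both directions. Under TMM scaling their summed level was 1693 to 2106 CPM in WT and 1692 to 2101 CPM in Mtm1-/y libraries. The ranges of the genotypes all but coincided, but this match depends on the scaling. The TMM factors were higher in Mtm1-/y libraries, which lowers their CPM relative to scaling by library totals alone. The median log2 fold change of the 8 was -0.10, beside 0.02 over all genes tested, or 0.24 beside 0.35 with library totals alone. Changes in muscle cell number and in RNA per muscle cell cannot be told apart in these bulk libraries, and neither was measured.

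**Figure D2:**
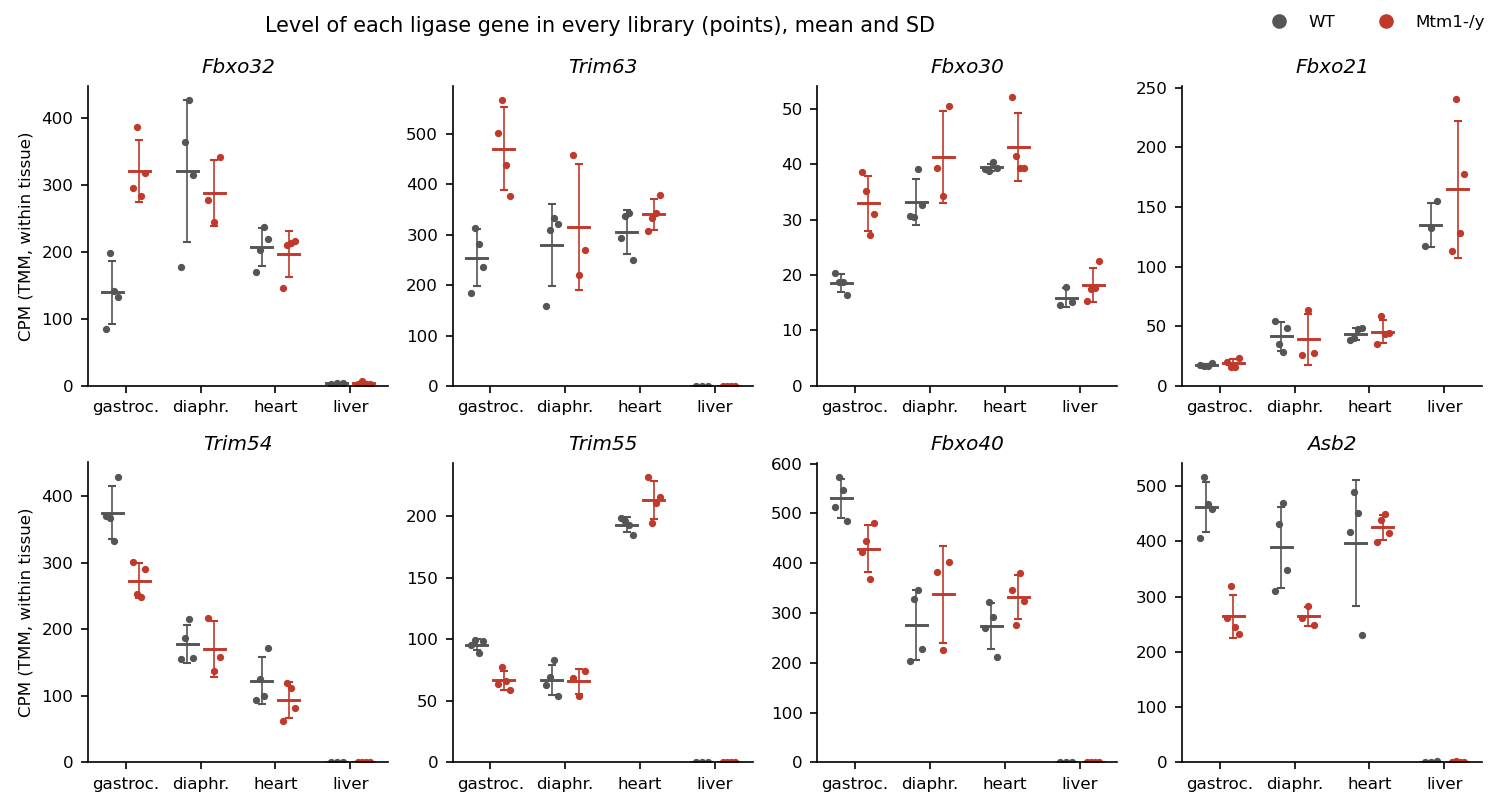
CPM (TMM scaling within each tissue) of each ligase gene in every library; grey points are WT and red points Mtm1-/y, with the group mean as a bar and the SD as a whisker, and each panel has its own axis from 0. In the gastrocnemius the genotypes do not overlap for any gene but Fbxo21, while in heart and liver they overlap for every gene.

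Fbxo32, the F-box protein that targets MyoD and eIF3f, showed the largest rise. Its WT gastrocnemius libraries held 84.7, 199, 142 and 133 CPM and its Mtm1-/y libraries 295, 387, 283 and 318 CPM. The lowest Mtm1-/y library was thus above the highest WT library, as was the case upwards for 14.7% of all genes, although the WT libraries spread by more than 2-fold among themselves. The log2 fold change was 1.2 (SE 0.22, 95% interval 0.71 to 1.69, adjusted p = 0.00314). It was the only one of the 8 past the study's additional threshold of an absolute log2 fold change over 1, which 4.84% of all genes passed upwards and 1.79% downwards.

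Trim63, which ubiquitinates myosin heavy chain and other thick filament proteins, held 184, 314, 281 and 237 CPM in WT and 502, 567, 439 and 377 CPM in Mtm1-/y gastrocnemius. The genotypes did not overlap, and the log2 fold change was 0.89 (SE 0.17, 95% interval 0.51 to 1.28, adjusted p = 0.00428). Fbxo30, a ligase subunit restrained by BMP signalling, had tight replicates, with 20.3, 18.7, 18.7 and 16.4 CPM in WT and 38.6, 35.2, 27.2 and 31.0 CPM in Mtm1-/y libraries. The groups did not overlap, and its log2 fold change was 0.83 (SE 0.11, 95% interval 0.58 to 1.09, adjusted p = 0.000791). Fbxo21, the fourth FoxO-linked ligase, did not pass the test: WT libraries held 17.1, 17, 17 and 18.9 CPM and Mtm1-/y libraries 20.3, 15.5, 15.9 and 23.8 CPM. Its groups overlapped, and the difference was 0.11 (95% interval -0.19 to 0.41, adjusted p = 0.564).

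Asb2, whose protein drives turnover of filamins, fell the most. WT gastrocnemius libraries held 406, 517, 468 and 458 CPM, and Mtm1-/y libraries 261, 320, 245 and 232 CPM. No Mtm1-/y library reached the lowest WT library, and the log2 fold change was -0.81 (SE 0.11, 95% interval -1.06 to -0.56, adjusted p = 0.000881). Both relatives of Trim63 moved against it. Trim55 held 95, 99.3, 89.1 and 98.5 CPM in WT and 63.3, 77.8, 65.8 and 59.0 CPM in Mtm1-/y libraries (log2 fold change -0.52, SE 0.09, adjusted p = 0.00211). Trim54 held 371, 367, 333 and 430 CPM in WT and 301, 254, 248 and 291 CPM in Mtm1-/y libraries (-0.46, SE 0.10, adjusted p = 0.00683). The genotypes did not overlap for either gene, which holds for 16% of all genes tested in this direction.

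Fbxo40 was the least certain of the 4 genes that fell, with 514, 574, 547 and 485 CPM in WT and 422, 445, 369 and 481 CPM in Mtm1-/y gastrocnemius. The highest Mtm1-/y library and the lowest WT library nearly touched. The log2 fold change was -0.30 (SE 0.09, 95% interval -0.51 to -0.10, adjusted p = 0.0346). The call was lost without WT replicate 1, 2 or 3 or without Mtm1-/y replicate 1, 2 or 3 (adjusted p 0.0549 to 0.0925), and with no filter on low counts (adjusted p = 0.0713).

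The falls and the summed level depend on how the libraries are scaled. The TMM factors of the gastrocnemius ran from 0.855 to 0.932 in WT and from 1.1 to 1.16 in Mtm1-/y libraries, and skeletal muscle markers summed to 184045 to 218880 CPM in WT against 117629 to 129158 CPM in Mtm1-/y libraries. With library totals alone the median gene shifted to 0.35 on the log2 scale, 92.2% of the genes called were higher in Mtm1-/y mice (48.5% with TMM), and of the 8 ligases 4 rose (Fbxo21 with the former 3) and Asb2 alone fell (-0.47, adjusted p = 0.00447). Trim54 then stood at -0.12 and Trim55 at -0.18, neither called, and Fbxo40 turned to 0.03. Relative to the shifted median gene, Fbxo32 stood at 1.2, Trim63 at 0.88, Fbxo30 at 0.81, Trim54 at -0.47, Trim55 at -0.54, Fbxo40 at -0.32 and Asb2 at -0.82.

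**Figure D3:**
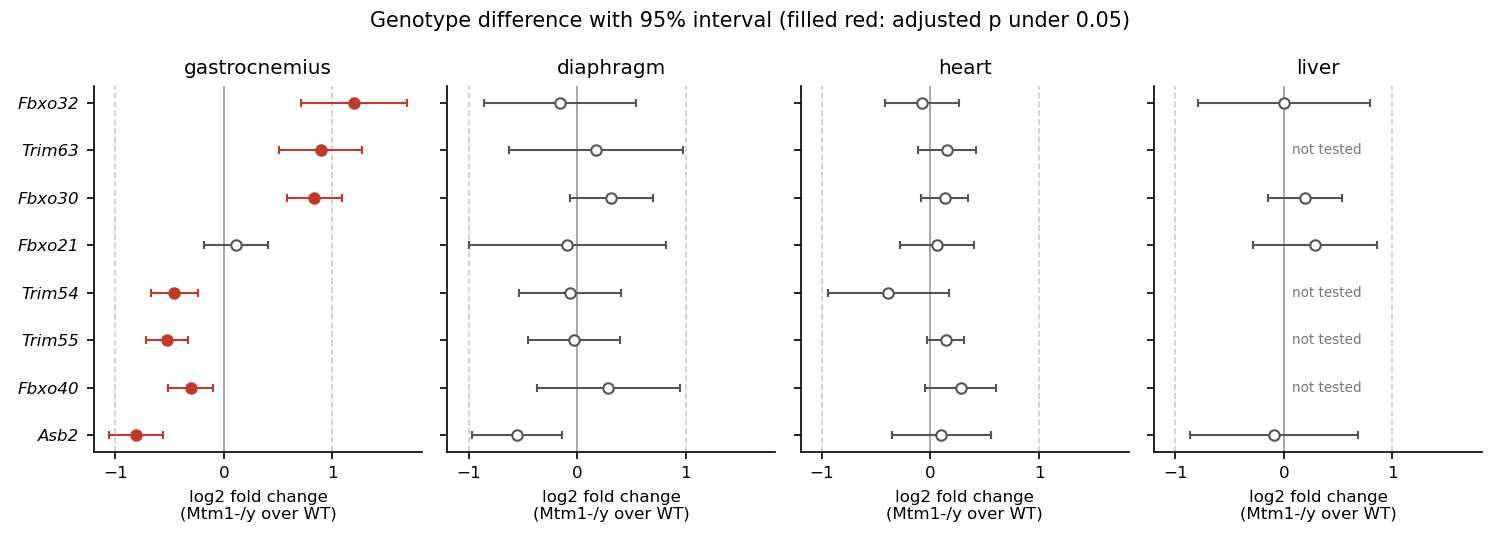
Log2 fold change of each ligase gene (Mtm1-/y over WT) with its 95% interval in 4 tissues; filled red points have an adjusted p under 0.05 in edgeR's quasi-likelihood test and dashed lines mark an absolute log2 fold change of 1. In the gastrocnemius 3 genes are to the right and 4 to the left of 0 with intervals that exclude it, and in the other tissues no gene is called.

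In the diaphragm none of the 8 genes was called by edgeR (background: 0.0119% of 16796 genes) or by DESeq2, which called 438 of all genes. At an unadjusted p under 0.05 in edgeR there was 1 (background: 10.8%). That gene was Asb2. Its WT diaphragm libraries held 310, 431, 469 and 348 CPM and its Mtm1-/y libraries 261, 283 and 249 CPM, with no overlap, as was seen downwards for 4.57% of all genes. The difference was -0.56 on the log2 scale (SE 0.18, 95% interval -0.97 to -0.14, edgeR adjusted p = 0.350). Fbxo32 held 178, 365, 426 and 314 CPM in WT and 277, 245 and 341 CPM in Mtm1-/y diaphragm (-0.16, 95% interval -0.86 to 0.54), so its Mtm1-/y libraries fell inside the WT range. Trim63 was as variable, from 159 to 332 CPM in WT and from 221 to 457 CPM in Mtm1-/y mice (0.17, 95% interval -0.63 to 0.98). The interval of Trim63 includes its change in the gastrocnemius, so a rise of that size was not excluded, whereas the interval of Fbxo32 lies below its own.

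Fbxo30 ranged from 30.4 to 39.2 CPM in WT and from 34.2 to 50.4 CPM in Mtm1-/y diaphragm (0.32, 95% interval -0.07 to 0.70). The differences of Trim54 (-0.07), Trim55 (-0.03) and Fbxo40 (0.29) were each smaller than 2 standard errors, and their libraries overlapped. Fbxo21, the liver-rich member, ranged from 26.0 to 28.0 CPM in the 3 diaphragm libraries with the least hepatocyte signal (449, 791 and 2754 CPM) and from 34.9 to 64.0 CPM in the 4 with the most (24257 to 47470 CPM). The part of hepatocyte RNA in its level was not tested. Its genotype difference was -0.09 (95% interval -0.997 to 0.819), and -0.10 when liver-enriched genes were left out before scaling.

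In the heart none of the 8 genes was called by edgeR (background: 0.00656% of 15238 genes) or by DESeq2, which called 85 of all genes. None had an unadjusted p under 0.05 in edgeR (background: 8.88%), and the genotypes overlapped for all 8 (4.26% of all genes did not overlap). Fbxo32 held 169, 203, 238 and 219 CPM in WT and 146, 210, 213 and 217 CPM in Mtm1-/y hearts (-0.08, SE 0.15, 95% interval -0.42 to 0.26). Trim63 held 293, 337, 344 and 250 CPM in WT and 307, 333, 344 and 380 CPM in Mtm1-/y hearts (0.16, SE 0.12, 95% interval -0.11 to 0.42). The upper limits of these intervals lie below the change of either gene in the gastrocnemius. Trim55, the heart-rich MuRF, held 199, 196, 193 and 184 CPM in WT and 232, 194, 210 and 216 CPM in Mtm1-/y hearts (0.14, SE 0.08, 95% interval -0.03 to 0.31). The remaining 5 genes had differences from -0.39 (Trim54) to 0.28 (Fbxo40). Asb2 had 1 WT heart library, replicate 4, at 231 CPM and the other 3 at 416 to 489 CPM, beside 399 to 450 CPM in Mtm1-/y hearts, and its difference went from 0.10 to -0.08 without that library.

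In the liver 4 of the 8 genes had enough counts to be tested, Fbxo32, Fbxo30, Fbxo21 and Asb2. None was called by edgeR (background: 0% of 14305 genes) or by DESeq2, which called 25 of all genes. None had an unadjusted p under 0.05 in edgeR (background: 4.24%). The genotypes overlapped for these 4 (6.09% of all genes did not overlap). Mtm1 itself was not called by edgeR in the liver (adjusted p = 0.365), so the lack of an edgeR call there does not exclude a change. Fbxo21 held 118, 133 and 155 CPM in WT and 113, 240, 128 and 178 CPM in Mtm1-/y livers (0.29, 95% interval -0.28 to 0.86). Fbxo30 held 14.7, 17.9 and 15.2 CPM in WT and 15.4, 17.5, 17.6 and 22.6 CPM in Mtm1-/y livers (0.20, 95% interval -0.14 to 0.54). Fbxo32 (0.00, 95% interval -0.79 to 0.79) and Asb2 (-0.09, 95% interval -0.87 to 0.69) were at 6.79 CPM or less in every liver library. The other 4 genes had 0 to 10 counts in WT and 0 to 32 in Mtm1-/y livers, the highest being Fbxo40 in Mtm1-/y replicate 2, the library with the most skeletal muscle markers.

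Whether a genotype effect differed between tissues was tested directly, in fits of 2 tissues that share the gastrocnemius or diaphragm libraries with the comparisons above. Between heart and gastrocnemius 6 of the 8 effects differed (background: 19.8% of 16627 genes). For heart minus gastrocnemius the difference of log2 fold changes was -1.26 for Fbxo32 (SE 0.29, adjusted p = 0.00814), -0.69 for Fbxo30 (SE 0.15, adjusted p = 0.00658), 0.68 for Trim55 (SE 0.12, adjusted p = 0.00140) and 0.92 for Asb2 (SE 0.25, adjusted p = 0.0186). Trim63 (-0.72, SE 0.23, adjusted p = 0.0376) and Fbxo40 (0.60, SE 0.18, adjusted p = 0.0325) passed less firmly in edgeR, and both calls were lost with no filter on low counts (adjusted p = 0.0511 and 0.0581) and in 8 and 9 of 16 fits that leave out a library. For Trim63 these were the fits without WT gastrocnemius replicate 1 or 4, Mtm1-/y gastrocnemius replicate 1 or 2, WT heart replicate 2 or 3, or Mtm1-/y heart replicate 1 or 3 (adjusted p 0.0581 to 0.0702), and for Fbxo40 those without WT gastrocnemius replicate 2 or 3, Mtm1-/y gastrocnemius replicate 1 or 3, WT heart replicate 1 or 4, or Mtm1-/y heart replicate 1, 3 or 4 (adjusted p 0.0501 to 0.0774). The calls of Trim55 and Asb2 were lost with library totals (adjusted p = 0.0631 and 0.0678) and in edgeR on all 30 libraries (0.191 and 0.0525), where those of Trim63 (0.282) and Fbxo40 (0.545) were lost as well, and the call of Trim63 was also lost with DESeq2 size factors (0.0507) and that of Fbxo40 with library totals (0.322). The calls of Fbxo32 and Fbxo30 were kept under each of these settings. Trim54 (0.09, 95% interval -0.52 to 0.69) and Fbxo21 (-0.03, 95% interval -0.49 to 0.42) were not called.

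Between gastrocnemius and diaphragm none of the 8 differences was called by edgeR (background: 0.28% of 17509 genes), and 3 had an unadjusted p under 0.05 (12.8% of all genes), Fbxo32, Fbxo30 (0.53) and Trim55 (-0.48). Fbxo32 had the largest, 1.37 for gastrocnemius minus diaphragm (SE 0.40, 95% interval 0.51 to 2.22, edgeR adjusted p = 0.188), and DESeq2 called it (adjusted p = 0.0425). For Asb2 the effects in the 2 skeletal muscles lay close, with a difference of -0.24 (95% interval -0.68 to 0.20), although this interval does not show them to be equal. None of the 8 differences was called between heart and diaphragm (background 0.00573%, with 1 at an unadjusted p under 0.05 beside 10.6% of all genes, and 0 by DESeq2). Between liver and gastrocnemius, none of the 4 genes that could be tested in the liver was called (background 6.34%), 3 of them had an unadjusted p under 0.05 (22.3% of all genes), Fbxo32, Fbxo30 and Asb2, and DESeq2 called 0. The other 4 genes passed the filter of this fit only through the gastrocnemius and are not read here. How many of all genes DESeq2 called in these contrasts was not counted.

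The rest of the ubiquitin pathway was read from lists of genes with known roles, in the gastrocnemius, where the same background of 14.1% higher and 14.9% lower applies. Of 25 other ligases expressed in muscle 4 rose and 5 fell, or 11 and 2 with library totals alone. Wwp1, a HECT ligase, went from 292 ± 29 to 173 ± 10 CPM (SD, n = 4; log2 fold change -0.76, adjusted p = 0.000343), and Klhl31, a Cul3 adaptor, from 578 ± 63 to 357 ± 47 CPM (-0.70, adjusted p = 0.00162). Klhl40, the nemaline myopathy gene that stabilises nebulin, rose from 152 ± 22 to 253 ± 52 CPM (0.74, adjusted p = 0.00561), while Fbxo31 fell from 148 ± 18 to 101 ± 8.7 CPM (-0.55, adjusted p = 0.00275). Of the Asb2 relatives, of which 15 were tested, 6 fell and none rose, with a median log2 fold change of -0.29. Asb18 (-0.78, adjusted p = 0.00136) and Asb14 (-0.72, adjusted p = 0.00187) fell by nearly as much as Asb2, and Asb13 (-0.42) and Asb12 (-0.50) by less. With library totals alone 3 of these 15 rose and 2 fell, and their median relative to the median gene stayed at -0.31.

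Among 15 genes of the cullin core and its partners 1 rose and 6 fell, the falls being small. Cul3 (-0.56, adjusted p = 0.000567) and Cul5 (-0.38, adjusted p = 0.00145), the scaffold on which Asb2 acts, were among those that fell, as was the muscle-enriched exchange factor Cand2 (-0.29, adjusted p = 0.0184), whereas its relative Cand1 rose (0.33, adjusted p = 0.0139). Of 20 genes for ubiquitin, E1 and E2 enzymes 1 rose and 9 fell, led by Ube2n (-0.66, adjusted p = 0.000262), Ube2d1 (-0.48), Ube2e1 (-0.35) and Ube2l3 (-0.27). These falls are relative to the median gene: with library totals alone 8 of the 15 cullin genes and 8 of the 20 enzymes rose and 1 of each fell, and Cand2 and Ube2l3 turned to 0.05 and 0.07.

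Upstream of the ligases, 8 of 28 transcription factors and signals rose and 5 fell, or 15 and 2 with library totals alone. Mstn, the growth inhibitor myostatin, dropped from 116 ± 26 to 35.3 ± 7.4 CPM (log2 fold change -1.72, adjusted p = 0.000265). Its antagonist Fst (follistatin) rose from 7.13 ± 1.2 to 25.9 ± 5.6 CPM (1.86, adjusted p = 0.000145). Gdf5, a BMP ligand of denervated muscle, went from 0.171 ± 0.035 to 6.17 ± 4.2 CPM and is counted among the 8 that rose. Its WT counts were under the minimum count of 10, and it passed the filter only through the Mtm1-/y libraries. The fold change of Gdf5 is therefore not read here. Foxo4 fell from 180 ± 17 to 118 ± 11 CPM (-0.60, adjusted p = 0.00125). Foxo1 (-0.18, adjusted p = 0.568) and Foxo3 (0.09, adjusted p = 0.754), chosen after their values were seen, did not pass the test at the level of mRNA. Of 23 other FoxO-responsive atrophy genes 9 rose and 1 fell, or 17 and 0 with library totals alone, with a median of 0.27 under TMM scaling. Gadd45a, induced in denervated muscle, rose from 13.9 ± 2.2 to 69.5 ± 25 CPM (2.32, adjusted p = 0.000264), Cdkn1a from 60.4 ± 19 to 183 ± 58 CPM (1.60, adjusted p = 0.00182), the lysosomal protease gene Ctsl from 138 ± 10 to 247 ± 33 CPM (0.84, adjusted p = 0.000506) and Mt2 from 24.3 ± 10 to 149 ± 59 CPM (2.61, adjusted p = 0.000848).

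Of 23 genes encoding known substrates of the 8 ligases 6 rose and 6 fell. Eid1, a known target of Fbxo21, rose (0.78, adjusted p = 0.000333), and Ppp3cb, a subunit of calcineurin, which Fbxo32 is known to target, fell (-0.69, adjusted p = 0.000289). The thick filament genes split: Mybpc2 (-0.91, adjusted p = 0.000729) and Myh4 (56161 ± 6346 to 28038 ± 5094 CPM, adjusted p = 0.00118) fell, while Myh1 (1.08, adjusted p = 0.00129), Myh2 (0.93, adjusted p = 0.00345) and Mybpc1 (0.65, adjusted p = 0.00404), outside the naming rule and chosen after their values were seen, rose. With library totals alone 11 of these 23 rose and 6 fell. In the diaphragm, heart and liver no gene of these 7 lists was called by edgeR. At an unadjusted p under 0.05 in edgeR, 6 of 20 substrates were higher in the liver, beside 242 of all 14305 genes. Lower in the heart were 5 of 24 upstream genes (889 of 15238), and higher in the diaphragm 6 of 28 (1106 of 16796). These were the largest counts in 1 direction. Many of the substrates are muscle genes, and Mtm1-/y liver replicate 2 held 98.7 CPM of skeletal muscle markers against 5.69 to 32.8 in the other liver libraries. The part of this library in the liver count was not tested.

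**Figure D4:**
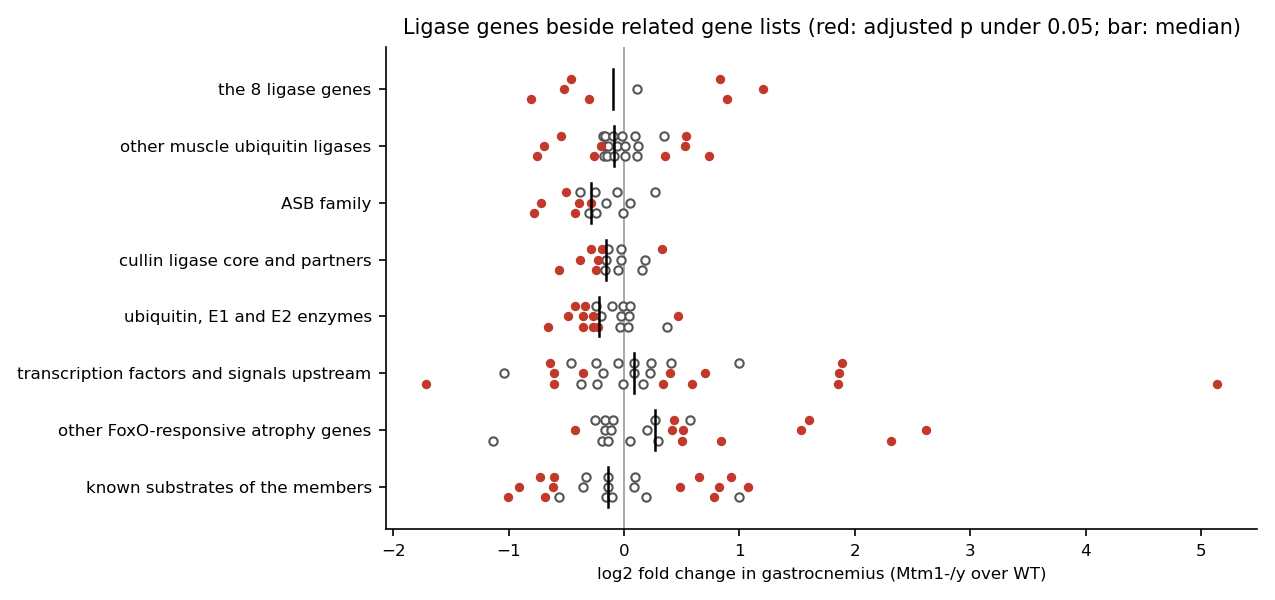
Log2 fold change in the gastrocnemius (Mtm1-/y over WT, TMM scaling) of every tested gene of the ligase set and of 7 related lists; red points have an adjusted p under 0.05 and the black bar is the median of the list. The ASB, cullin and E2 points lie mostly left of 0 and the FoxO-responsive points mostly right, while the 8 ligases fall on both sides.

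Markers of other cells moved in the same gastrocnemius libraries. All 6 macrophage markers rose, their sum going from 32.7 to 55.8 CPM in WT to 113 to 146 CPM in Mtm1-/y libraries, and 7 of 8 white adipocyte markers rose (210 to 327 against 337 to 510 CPM). Of 8 skeletal muscle markers 6 fell and 2 rose, and of 4 satellite cell markers 1 fell, Pax7 (-1.05, adjusted p = 0.00137), and none rose. Of 4 fibroblast markers 2 rose, and of 3 nerve and Schwann cell markers none was called by edgeR. The slow fibre, endothelial and hepatocyte lists each had 1 marker that fell and none that rose, and of 4 cardiomyocyte markers tested 2 rose and 1 fell. The part of these cells in the ligase levels was not tested.

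Across the 30 libraries, after the tissue mean of log2(CPM + 1) was subtracted, Fbxo32 and Trim63 went together with a Pearson r of 0.78, as a description with no test. Each was the second most similar gene to the other out of 9818 searched, behind Trafd1 (0.79) for Fbxo32 and Pdcd7 (0.82) for Trim63. The libraries share tissues and the gastrocnemius genotype difference, so these values rest in part on the same contrast. Inside WT gastrocnemius, the library lowest in Fbxo32 (replicate 1) was also the lowest in Trim63, and the highest in Fbxo32 (replicate 2) the highest in Trim63. The same WT diaphragm library, replicate 1, was lowest in both. Fbxo30 went with Fbxo32 (0.53) and Trim63 (0.59) and against Asb2 (-0.60), while Trim55 went with Fbxo40 (0.67) and Asb2 (0.63). Fbxo32 and Asb2 showed little relation over all libraries (-0.20).

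**Figure D5:**
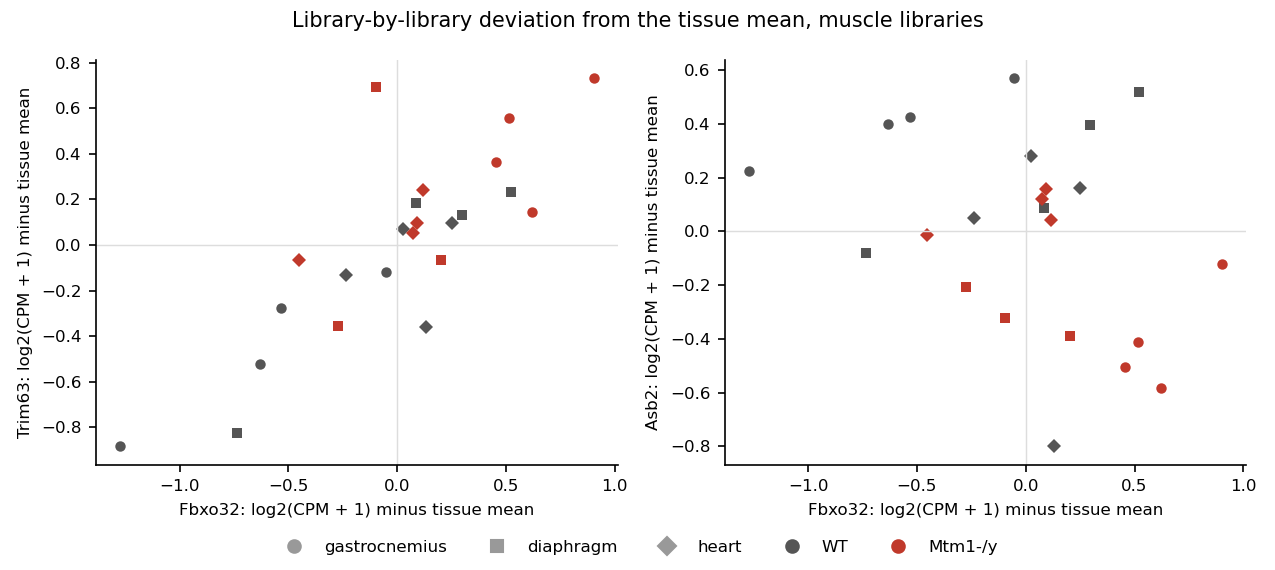
Deviation of each muscle library from its tissue mean, in log2(CPM + 1), for Fbxo32 against Trim63 (left) and against Asb2 (right); the shape gives the tissue and the colour the genotype (grey WT, red Mtm1-/y). Fbxo32 and Trim63 rise together (r = 0.78 over 30 libraries, liver included), whereas for Asb2 the gastrocnemius genotypes separate along both axes.

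The genes most like the others in this measure were Rb1 (0.90), Stom (0.86) and Kcnn3 (0.86) for Fbxo30, and for Fbxo21 they included Clcn2 (0.88) and Hectd3 (0.87). For Trim54 they included the muscle chloride channel Clcn1 (0.83) and Zdhhc8 (0.80), and for Trim55 they were Ank1 (0.91), Amz2 (0.90) and Idh3a (0.89). Fbxo40 went with Srl (0.88), Aimp1 (0.85) and Gyg (0.84). Asb2 had the closest partners of all 8, the mitochondrially encoded mt-Cytb (0.95) and mt-Nd4 (0.94) and the complex I assembly factor gene Ecsit (0.92). The third partner was Mfsd7a (0.78) for Fbxo32 and B3galt2 (0.77) for Trim63.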

How the data were processed

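RNA was measured in 30 libraries from mice aged 5 weeks. The deposited values are raw counts per gene, which the authors made with bcl2fastq 2.17.1.14, cutadapt 1.10, STAR 2.5.3a on mm10 and HTSeq 0.6.1p1 (Ensembl annotation, uniquely aligned reads in union mode). Reads shared with another gene were therefore dropped. The 8 genes, the related lists and the tests were chosen with earlier results of these data known.

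Counts were tested within each tissue with edgeR 4.0.16 (R 4.3.3, limma 3.58.1): filterByExpr with a minimum count of 10, TMM scaling and the quasi-likelihood F test, with Benjamini-Hochberg adjustment over all genes tested. Calls in the text are those with an adjusted p below 0.05. Differences of genotype effects were contrasts in fits of 2 tissues, and WT tissues were compared in 1 fit of 15 libraries. SE is the log2 fold change over the root of F. DESeq2 1.42.0 was an alternative. The method was tested on simulated data that had the same spread in every tissue. That test does not show what could be found in the more variable diaphragm. Genes named from a list are up to 4 with the smallest p among those called in the gastrocnemius, and likeness was ranked among genes at 5 CPM or more there. Some genes of that ranking are not reported here.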

Additional observations from a re-analysis of the deposited data

Results flagged for a closer look

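The effect of genotype on 6 genes differed between heart and gastrocnemius by a test of the difference itself (background: 19.8% of 16627 genes). For heart minus gastrocnemius the difference on the log2 scale was -1.26 for Fbxo32, -0.72 for Trim63, 0.68 for Trim55, -0.69 for Fbxo30, 0.60 for Fbxo40 and 0.92 for Asb2, with adjusted p of 0.00814, 0.0376, 0.00140, 0.00658, 0.0325 and 0.0186 in edgeR. The calls of Trim63, Trim55, Fbxo40 and Asb2 were lost in edgeR on all 30 libraries (adjusted p 0.0525 to 0.545). In each case the gastrocnemius libraries of the genotypes did not overlap (14.7% of all genes upwards and 16% downwards) and the heart libraries did.

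In groups of 4 libraries, a single library stood far from the other 3 in 5 of 48 gene and group combinations. The genes share libraries and some liver counts are very low, so this number is not set against a chance rate. Fbxo21 was highest in WT gastrocnemius replicate 4 (18.9 CPM), and Trim63 was lowest in WT diaphragm replicate 1 (159 CPM). Fbxo32 was lowest in Mtm1-/y heart replicate 1 (146 CPM). Mtm1-/y liver replicate 2 was highest in Trim54 (0.397 CPM) and in Trim55 (0.289 CPM), and the same library had the largest sum of skeletal muscle markers in the liver (98.7 CPM).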

How the results depend on the processing

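Fbxo32, Trim63 and Fbxo30 rose and Asb2 fell in the gastrocnemius under every scaling, filter, test and left-out library tried except the study's fold threshold, which kept Fbxo32 alone. Members that fell there numbered 1 with library totals alone (chosen after seeing the data) and 1 in edgeR on all 30 libraries, with 8294 and 2925 genes called; with the study's fold threshold 1 member rose and 0 fell, of 1024 genes called. Genes called with DESeq2 numbered 438 in diaphragm, 85 in heart and 25 in liver, and in edgeR on all 30 libraries 274, 5 and 14; 4 were called in diaphragm with liver-enriched genes left out and 8 in liver with no filter. Leaving out each library gave 0 to 162 in diaphragm (162 without Mtm1-/y replicate 2), 1 to 19 in heart (19 without WT replicate 1) and 0 to 8 in liver (8 without Mtm1-/y replicate 1).

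Differences of genotype effects called among the 8 numbered 1 with library totals or DESeq2 for gastrocnemius minus diaphragm, 3 with library totals and 2 on all 30 libraries for heart minus gastrocnemius, and 2 with library totals for liver minus gastrocnemius (0 to 1 leaving out each library), genes with 0 to 32 liver counts included. WT diaphragm and heart differed in 1 to 3 members leaving out each library.

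With library totals, signs turned for Fbxo40 in gastrocnemius (0.030), Trim55 in diaphragm (0.025), the Asb2 difference gastrocnemius minus diaphragm (0.044), the Trim54 difference heart minus gastrocnemius (-0.33), and in WT for Trim63 gastrocnemius minus diaphragm (-0.30) and minus heart (-0.46) and Fbxo40 diaphragm minus heart (-0.033). Fbxo32 in liver turned to 0.0025 with DESeq2 size factors, 0.0022 with no filter, 0.0069 with DESeq2, 0.0059 on all 30 libraries and 0.0010 without liver-enriched genes. The Fbxo21 difference heart minus gastrocnemius turned to 0.016 with DESeq2 size factors and 0.022 with DESeq2, and Asb2 in WT diaphragm minus heart to 0.00035 with no filter. Of these only Fbxo40 in gastrocnemius had been called, and the cause was not tested.

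Replicate numbers gave no clear pairing of the libraries. Deviations of same-numbered WT and Mtm1-/y libraries correlated at -0.69 to 0.51. Those of same-numbered libraries of 2 tissues correlated at -0.11 to 0.29 in WT and -0.18 to 0.25 in Mtm1-/y mice. No set of pairs was over 0.1 throughout. The WT pairs of heart with diaphragm (0.09 to 0.19) and with gastrocnemius (0.03 to 0.19) were all positive, and the Mtm1-/y pairs of gastrocnemius and heart all negative. Across genotypes within a tissue, 9 of 28 libraries correlated best with their own number, among 3 or 4 candidates each. A shared animal behind same-numbered tissues is not excluded, and the tests between tissues took the libraries as independent. With the replicate block, 3 members rose and 3 fell in gastrocnemius (3925 genes; Fbxo40 adjusted p = 0.0623), 5 differed between heart and gastrocnemius (Fbxo40 adjusted p = 0.0550) and 1 between liver and gastrocnemius, and 0 genes were called in diaphragm. The block turned Fbxo32 (0.063), Trim54 (0.014) and Trim55 (0.080) in diaphragm, Fbxo32 (0.056) and Asb2 (0.10) in liver, and Asb2 in WT diaphragm minus heart (0.017), and added a call for Fbxo32 in WT diaphragm minus heart (0.59, adjusted p = 0.00972).

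Leaving out each library, signs turned where the range spans 0. For log2 fold changes the ranges were -0.0089 to 0.20 (Fbxo21, gastrocnemius), -0.36 to 0.032 (Fbxo32, diaphragm), -0.19 to 0.37 (Trim63, diaphragm), -0.28 to 0.069 (Trim54, diaphragm), -0.12 to 0.10 (Trim55, diaphragm), -0.64 to 0.14 (Fbxo21, diaphragm), -0.16 to 0.043 (Fbxo32, heart), -0.086 to 0.16 (Fbxo21, heart), -0.085 to 0.22 (Asb2, heart), -0.39 to 0.18 (Fbxo32, liver) and -0.33 to 0.25 (Asb2, liver). For differences of genotype effects they were -0.0019 to 0.75 (Fbxo21, gastrocnemius minus diaphragm), -0.19 to 0.096 (Fbxo21, heart minus gastrocnemius) and -0.062 to 0.28 (Trim54, heart minus gastrocnemius), and for WT tissues -0.39 to 0.0082 (Fbxo32, gastrocnemius minus heart), -0.042 to 0.36 (Trim63, gastrocnemius minus diaphragm), -0.15 to 0.15 (Trim63, diaphragm minus heart), -0.15 to 0.18 (Fbxo21, diaphragm minus heart), -0.058 to 0.22 (Fbxo40, diaphragm minus heart) and -0.12 to 0.15 (Asb2, diaphragm minus heart).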

Other observations

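Some libraries stood apart in several of the 8 genes at once. WT heart replicate 4 was the highest of the WT hearts in Trim54 (172 CPM) and the lowest in Trim63 (250 CPM), Fbxo40 (211 CPM) and Asb2 (231 CPM). WT diaphragm replicate 1 was the lowest of the WT diaphragms in Fbxo32 (178 CPM), Trim63 (159 CPM), Fbxo40 (204 CPM) and Asb2 (310 CPM) and the highest in Fbxo21 (54.7 CPM). Mtm1-/y liver replicate 2 was the highest of the liver libraries in Fbxo32 (6.79 CPM), Fbxo40 (1.16 CPM) and Fbxo21 (240 CPM), and had the lowest sum of macrophage markers in the liver (29.0 CPM).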
